A study of Mus musculus with 4 samples.

Results

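Genes of amino acid catabolism and the urea cycle were described in the fasted liver of Cnot3+/- and wild-type mice. The members were fixed by name, as 45 symbols of enzymes of these pathways and of the kinase that regulates the branched-chain complex, and were found among the array's probe sets that carry a single gene symbol in the platform annotation. Of the 45, 42 had such a probe set, and all 42 lay above the filter on dim probe sets. The other 3, Sds, Sdsl and Gls2, were not analysed here. The 42 stand among 18194 genes named in this way in the whole series, of which 13379 were tested. The samples were livers of 2 Cnot3+/- and 2 wild-type mice, all male, C57BL/6J, 12 weeks of age, fed normal chow and then kept without food for 24 h, and each liver was hybridised to 1 one-colour Affymetrix array as biotin-labelled cRNA. The CNOT3 protein belongs to CCR4-NOT, the machinery that shortens poly(A) tails of mRNAs. The labels give the heterozygous genotype without describing the allele, and the arrays are called Cnot3+/- 1, Cnot3+/- 2, wild-type 1 and wild-type 2 after their labels.

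During fasting the liver strips amino acids of their nitrogen, sends the carbon skeletons to glucose and ketone body production, and disposes of the ammonia as urea. Transaminases and glutamate dehydrogenase collect the nitrogen. The urea cycle, which begins in the mitochondrion and ends in the cytosol, fixes it, chiefly in periportal hepatocytes. Dedicated pathways then degrade each carbon skeleton, and several of their first enzymes, such as tyrosine aminotransferase, are textbook targets of glucagon and glucocorticoid hormones.

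The arrays held 45101 values each, on a log2 scale, with medians between 4.62 and 4.66. The probe set used for Cnot3 stood at 7.70 and 7.86 in Cnot3+/- livers, against 7.48 and 8.14 in wild-type livers, a difference of -0.03 (SE 0.25, n = 2 per group). A second, dimmer Cnot3 probe set stood at 5.54 and 5.54 in Cnot3+/- livers, against 5.33 and 5.52 in wild-type livers, a difference of 0.11. The genotypes therefore rest on the labels, and the position of the Cnot3 probes relative to the altered part was not analysed here. Hepatocyte markers were bright on all arrays, albumin (Alb) lying between 14.80 and 14.87. Between the Cnot3+/- arrays 432 genes were at least 2-fold apart, against 74 between the wild-type arrays. Kupffer cell and macrophage markers separated them widely. The mean level of 8 such markers was 7.49 in Cnot3+/- 1 and 9.67 in Cnot3+/- 2, while the wild-type arrays had 7.67 and 7.91. The 8 differences between genotypes were all positive (47.9% of all genes tested were). Only 2 had both Cnot3+/- livers above both wild-type livers (25%, against 14.1% of all genes tested). All 8 were detected above the filter, as were 6 of 6 sinusoidal endothelial markers. Of those 6, 0 had a positive difference and 3 had groups apart downward (50%, against 17.4% of all genes tested). Their medians relative to wild-type were -0.77 on Cnot3+/- 1 and -0.12 on Cnot3+/- 2.

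No gene of amino acid catabolism or the urea cycle passed the test. In limma, 0 of 42 had an adjusted p under 0.05, where 0.0149% of all genes tested passed upward and 0% passed downward, and the smallest adjusted p among the 42 was 0.999. Before adjustment, 2 members were higher at p under 0.05, Bckdhb and Ass1, and 0 were lower, beside 1.73% of all genes higher and 1.85% lower. A wider description is how often the groups were fully apart. Both Cnot3+/- livers lay above both wild-type livers in 11 members, or 26.2%, against 14.1% of all genes tested. In 0 members did both lie below, against 17.4% of all genes tested. The median difference over the members was 0.06, against a median of -0.01 over all genes tested. Of the members' differences, 29 were positive (69%, against 47.9% of all genes tested) and 13 negative.

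The members stood highest on Cnot3+/- 1. Relative to their wild-type means, their median was 0.13 on Cnot3+/- 1 and -0.01 on Cnot3+/- 2, while wild-type 1 and 2 had 0.01 and -0.01. Cnot3+/- 1 was the highest of the 4 arrays for 23 members, Cnot3+/- 2 for 6, wild-type 1 for 6 and wild-type 2 for 7. Over all 13379 genes tested the counts in the same order were 3061, 3355, 3966 and 2997. Of the 42 members, 32 (76.2%) were higher in Cnot3+/- 1 than in Cnot3+/- 2, where 51.2% of all genes tested were. Without Cnot3+/- 1 the median difference was -0.01, with 14 members fully above and 13 fully below wild-type. With 1 array set against 2, such separation is easier to reach, and 31.8% of all genes were then above and 36.3% below. Without Cnot3+/- 2 the median was 0.13, with 26 members above and 2 below, against 30.1% and 33.8% of all genes. Hepatocyte markers, 6 genes, had medians of 0.07 on Cnot3+/- 1 and 0.04 on Cnot3+/- 2 relative to wild-type. Of the Cnot3+/- arrays, the one that stood lower for the members, at a median near wild-type, was Cnot3+/- 2, which had high macrophage markers. It also had high T and NK cell markers, at a median of 1.08 relative to wild-type (0.07 on Cnot3+/- 1), over 4 genes with a mean level of 5.82. Its cholangiocyte markers had a median of 0.56 (0.24 on Cnot3+/- 1), over 3 genes with a mean level of 4.94. Neutrophil markers had a median of 0.55 (-0.04 on Cnot3+/- 1), but their 4 genes were split. S100a8 and S100a9 stood at 5.76 and 6.71 on Cnot3+/- 2, above wild-type means of 4.06 and 5.50. Mpo and Elane stood at 4.54 and 5.30 there, below wild-type means of 4.66 and 5.52. Stellate and endothelial markers were low on the other, Cnot3+/- 1, with medians of -0.33 and -0.77 relative to wild-type, and had medians of 0.48 and -0.12 on Cnot3+/- 2. Some markers passed the filter, at 4.06, with the help of a high value on Cnot3+/- 2. The T cell marker Cd3g stood at 5.57 there and between 3.75 and 4.14 on the other arrays. S100a8 and the stellate marker Col1a1 lay between 3.74 and 4.38 on the other arrays. Their part in these medians is a description only. In whole liver, fewer cells of a type and less RNA per cell cannot be told apart, and the part of cell composition in these values was not tested.

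**Figure D1:**
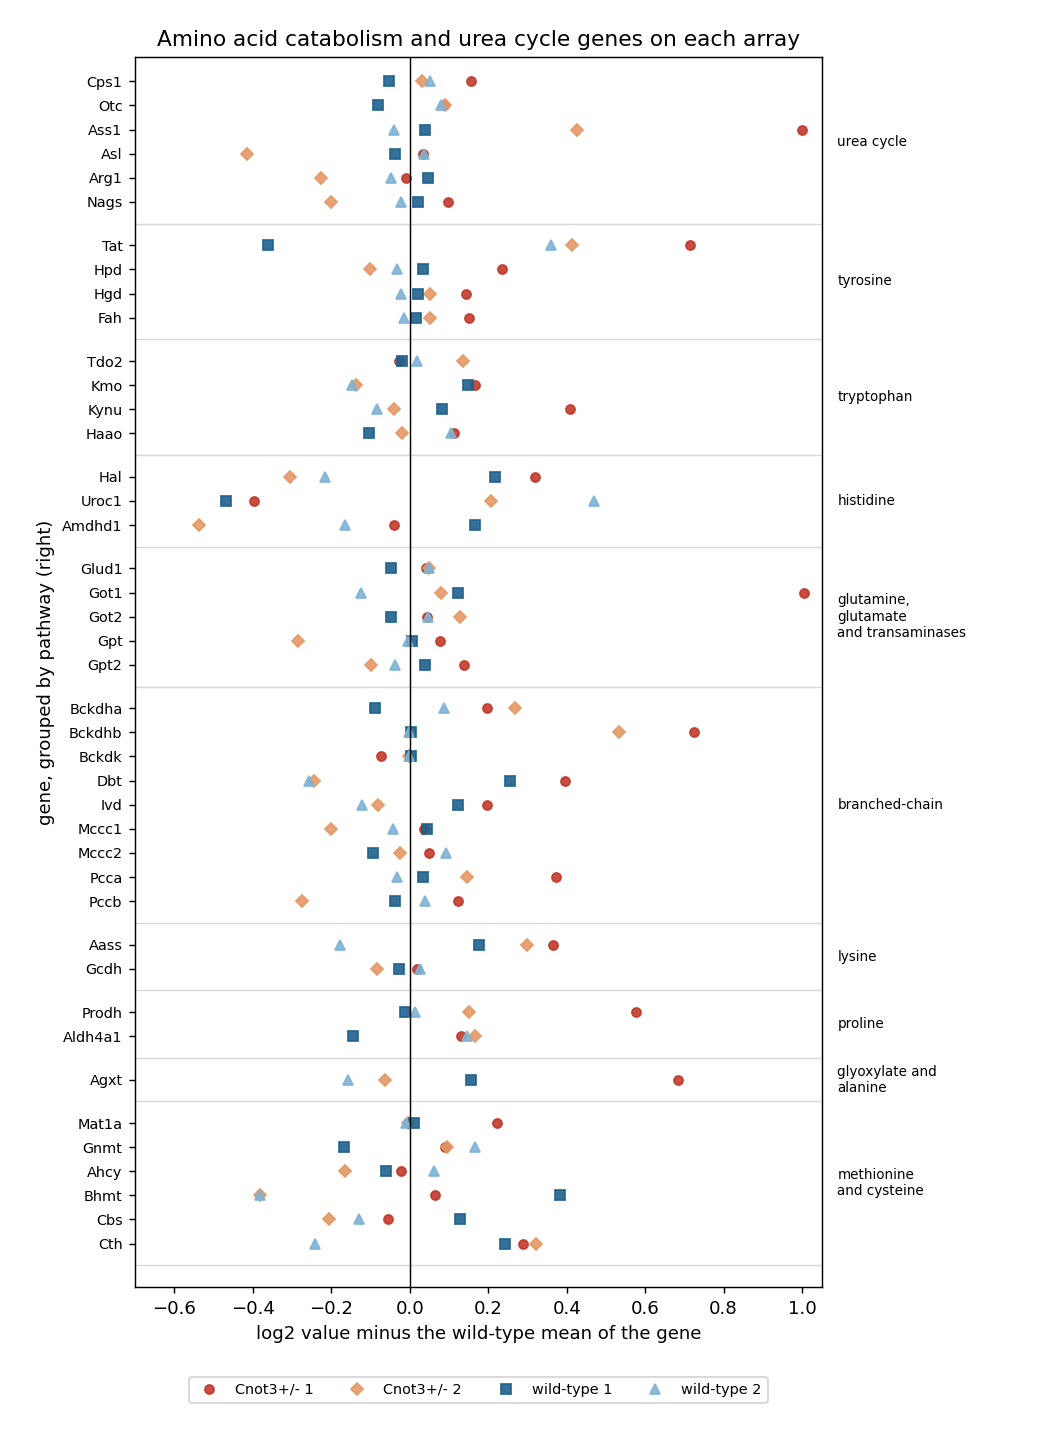
Log2 value of each of the 42 genes on each array minus the wild-type mean of that gene (x axis), with genes grouped by pathway (y axis). Each point is 1 array. Cnot3+/- 1 is the rightmost point for 23 genes, and Ass1, Got1, Bckdhb, Tat and Agxt reach furthest to the right on it.

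The intervals show what these 4 arrays could resolve. For 37 of the 42 members the 95% confidence interval of the difference lay wholly within a 2-fold change in either direction, and for 25 within a 1.5-fold change. The difference was smaller than 0.2 in size for 31 members. Of all 13379 genes tested, 12307 had intervals within 2-fold, 7800 within 1.5-fold, and 9430 a difference under 0.2. Those shares are close to the shares of the members. Intervals lay wholly above 0 for Ass1 and Bckdhb and wholly below 0 for 0 members, against 232 and 248 of all genes tested. The differences thus ran from -0.29 (SE 0.22) for Amdhd1 to 0.71 (SE 0.22) for Ass1. Limma took part of its spread from all genes, and an interval of a single gene is not corrected for the number of genes.

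**Figure D2:**
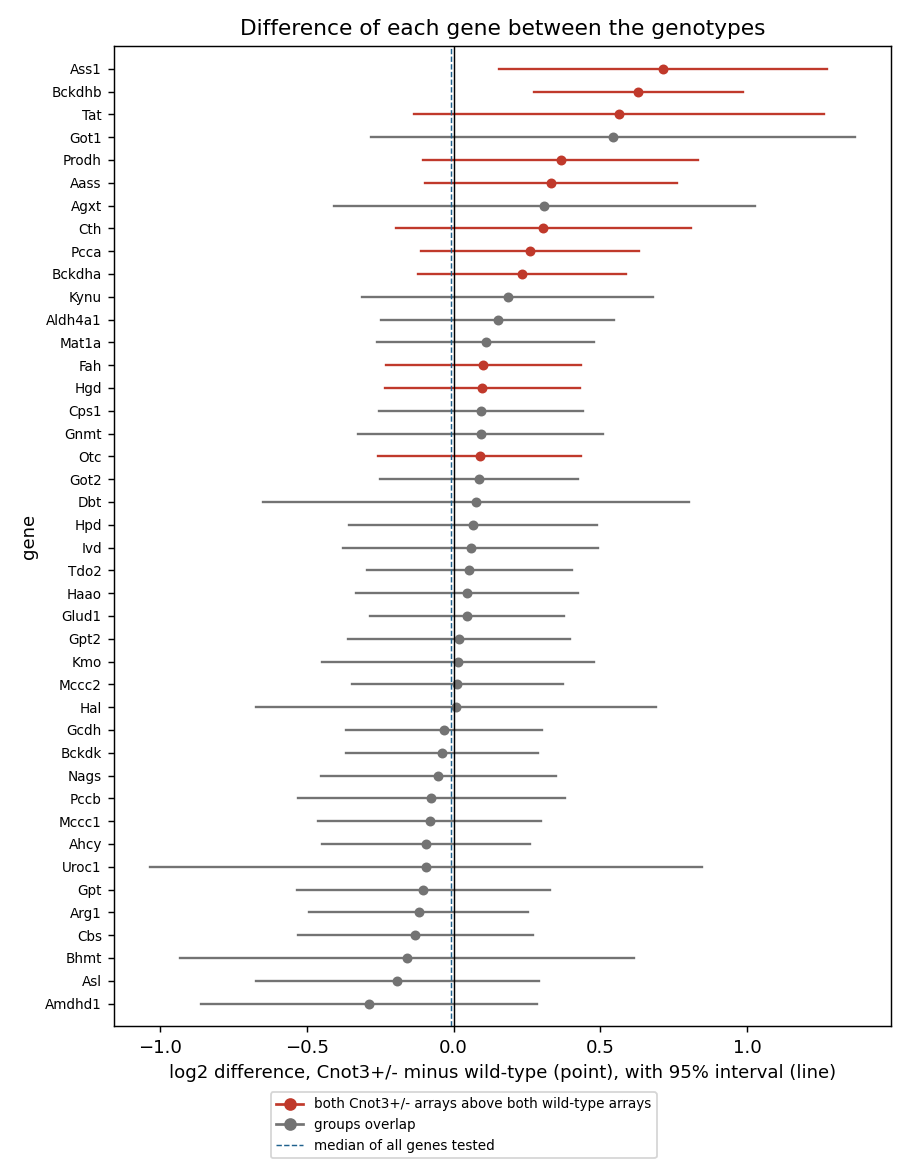
Log2 difference of each of the 42 genes, Cnot3+/- minus wild-type (points), with its 95% confidence interval from limma (lines), in order of size. Red marks the 11 genes with both Cnot3+/- arrays above both wild-type arrays, grey the genes whose groups overlap, and the dashed line the median of all genes tested, at -0.01.

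The urea cycle as a whole lay close to wild-type. Of its 6 members, 3 differences were positive and 3 negative, with a median of 0.02. Cps1, the mitochondrial carbamoyl phosphate synthetase that commits ammonia to the cycle, stood at 13.65 and 13.53 in Cnot3+/- livers, against 13.44 and 13.55 in wild-type livers. The groups overlapped, and the difference was 0.09 (SE 0.14). Otc, the ornithine carbamoyltransferase that makes citrulline, stood at 12.50 and 12.50 in Cnot3+/- livers, against 12.33 and 12.49 in wild-type livers. Its groups were apart by less than the gap between the wild-type livers, with a difference of 0.09 (SE 0.14), and its other 2 probe sets differed by 0.03 and -0.05 with overlapping groups. Nags makes N-acetylglutamate, the activator that Cps1 needs. It stood at 9.32 and 9.03 in Cnot3+/- livers, against 9.25 and 9.20 in wild-type livers (difference -0.05, SE 0.16).

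The cytosolic steps divided by array. Asl, the lyase that splits argininosuccinate into arginine and fumarate, stood at 12.37 and 11.92 in Cnot3+/- livers, against 12.30 and 12.37 in wild-type livers. Cnot3+/- 2 alone was low, and the difference of -0.19 (SE 0.19) turned to 0.03 without it. Arg1, the liver arginase that releases urea, stood at 13.53 and 13.31 in Cnot3+/- livers, against 13.59 and 13.49 in wild-type livers. Again Cnot3+/- 2 was the lowest array, and the difference was -0.12 (SE 0.15), or -0.01 without that array.

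Ass1, the argininosuccinate synthetase, had the largest difference of the members, and a second probe set did not show it. Its values were 7.66 and 7.09 in Cnot3+/- livers, against 6.71 and 6.63 in wild-type livers. Both Cnot3+/- arrays were higher, by 1.64-fold (95% confidence interval 1.11 to 2.42; log2 difference 0.71, SE 0.22, limma adjusted p = 0.999), and the difference was 0.43 when Cnot3+/- 1 was left out and 0.999 when Cnot3+/- 2 was. A further probe set, which the annotation gives to both Ass1 and Gm5424 and which the naming rule therefore leaves out, stood at 13.65 and 13.60 in Cnot3+/- livers, against 13.62 and 13.62 in wild-type livers. Its groups overlapped, with a difference of 0.01. What separates the probe sets was not tested.

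The clearest separation relative to its spread was that of Bckdhb, in the branched-chain pathway. After transamination in other tissues, the branched-chain keto acids are committed to breakdown by a mitochondrial dehydrogenase complex, whose E1 subunits are encoded by Bckdha and Bckdhb and whose E2 core is encoded by Dbt. Bckdhb stood at 11.10 and 10.90 in Cnot3+/- livers, against 10.37 and 10.37 in wild-type livers. Both Cnot3+/- arrays were higher by more than the gap between them, at 1.55-fold (95% confidence interval 1.21 to 1.98; log2 difference 0.63, SE 0.14, limma adjusted p = 0.999). Leaving out any 1 array gave between 0.53 and 0.72, and the annotation gives this gene a single probe set, so no second reading was at hand.

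The other genes of the complex had smaller differences. Bckdha, the partner subunit, stood at 10.46 and 10.53 in Cnot3+/- livers, against 10.18 and 10.35 in wild-type livers, groups apart but with a difference of 0.23 (SE 0.14), or 0.145 without wild-type 1. Dbt stood at 9.83 and 9.19 in Cnot3+/- livers, against 9.69 and 9.18 in wild-type livers. Its spread within each genotype was larger than its difference of 0.08 (SE 0.28). Bckdk, the kinase that switches the complex off, differed by -0.04 (SE 0.13). Downstream, Ivd, the isovaleryl-CoA dehydrogenase of leucine breakdown, differed by 0.06 (SE 0.17), and the 3-methylcrotonyl-CoA carboxylase genes Mccc1 and Mccc2 by -0.08 (SE 0.15) and 0.01 (SE 0.14). Further probe sets gave -0.09 for Ivd, 0.06 for Mccc1, and -0.20 and -0.09 for Mccc2. The groups were apart downward only for the Mccc2 probe set at -0.20. The propionyl-CoA carboxylase genes diverged. Pcca, the biotin-bearing subunit, stood at 9.84 and 9.61 in Cnot3+/- livers, against 9.50 and 9.43 in wild-type livers, groups apart with a difference of 0.26 (SE 0.15), or 0.15 without Cnot3+/- 1. Another Pcca probe set, below the filter, gave -0.38 with groups apart downward. Pccb, the other subunit, overlapped and differed by -0.08 (SE 0.18).

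The promoters of Bckdhb and Ass1 are shown because these genes had the largest differences among the members whose groups were apart. They come from RefSeq, build GRCm38.p6, and are windows of 300 bases around the annotated start, on the plus strand, 5′ to 3′. Capitals mark matches, on either strand, to a short cyclic AMP response motif (TGACG), a short glucocorticoid response motif (AGAACA) or a short C/EBP motif (GCAAT), all parts of the sites of factors that act on fasting genes.
Bckdhb, chr9:83924887-83925186: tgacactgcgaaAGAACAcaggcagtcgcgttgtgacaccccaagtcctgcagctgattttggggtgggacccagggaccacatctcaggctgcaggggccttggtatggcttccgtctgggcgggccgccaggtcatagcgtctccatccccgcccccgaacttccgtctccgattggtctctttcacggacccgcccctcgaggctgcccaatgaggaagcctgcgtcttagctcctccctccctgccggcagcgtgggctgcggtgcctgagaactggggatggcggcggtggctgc
Ass1, chr2:31470020-31470319: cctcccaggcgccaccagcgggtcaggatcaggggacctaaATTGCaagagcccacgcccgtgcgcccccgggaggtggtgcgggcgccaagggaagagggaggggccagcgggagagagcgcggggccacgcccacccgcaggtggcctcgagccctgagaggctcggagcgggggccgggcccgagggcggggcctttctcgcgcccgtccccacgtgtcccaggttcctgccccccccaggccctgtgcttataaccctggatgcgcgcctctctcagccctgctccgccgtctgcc

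The Bckdhb window holds 1 glucocorticoid motif, beginning at base 13, and the Ass1 window holds 1 C/EBP motif on the opposite strand, beginning at base 42. A second promoter entry of Bckdhb held 0 matches. Among 36 promoter entries of 34 members, the glucocorticoid motif was found in 6 (16.7%), against 19.0% of all 32851 promoters of this length. The cyclic AMP motif was found in 3 (8.33%), against 20.8%, and the C/EBP motif in 13 (36.1%), against 26.4%. Matches of so few letters are a description of these windows and not of bound sites.

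In tyrosine breakdown all 4 differences were positive (47.9% of all genes tested were), 3 of them with the groups apart upward (14.1% of all genes tested). Tat, the transaminase that opens the pathway, stood at 13.27 and 12.97 in Cnot3+/- livers, against 12.19 and 12.91 in wild-type livers. Wild-type 1 was low by itself, and Cnot3+/- 2 lay only just above wild-type 2. Leaving out wild-type 1 brought the difference of 0.56 (SE 0.27) to 0.20, and leaving out wild-type 2 brought it to 0.92. The later enzymes were close to wild-type. Hgd, the homogentisate dioxygenase, differed by 0.10 (SE 0.13), and Fah, the fumarylacetoacetate hydrolase lost in hereditary tyrosinaemia, by 0.10 (SE 0.13), each with groups apart. Hpd, the hydroxyphenylpyruvate dioxygenase, overlapped, with a difference of 0.07 (SE 0.17). Another Hgd probe set gave 0.47 with overlapping groups.

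Tryptophan and histidine breakdown showed no separation of the groups. In the kynurenine pathway the differences were 0.05 (SE 0.14) for Tdo2, the dioxygenase that opens it, 0.02 (SE 0.18) for the hydroxylase gene Kmo, 0.18 (SE 0.19) for Kynu, the kynureninase, and 0.05 (SE 0.15) for Haao, which leads on to NAD synthesis. Kynu was high in Cnot3+/- 1, at 9.98, and lay at 9.54 in Cnot3+/- 2, against 9.66 and 9.49 in wild-type livers. A second, dim Kynu probe set gave -0.11 with overlapping groups. For histidine, Hal, the ammonia lyase that releases urocanate, differed by 0.01 (SE 0.27), Uroc1, the urocanate hydratase, by -0.10 (SE 0.37) and Amdhd1, the next enzyme, by -0.29 (SE 0.22). Amdhd1 was at -0.04 without Cnot3+/- 2 and -0.54 without Cnot3+/- 1. These genes varied widely within genotypes. Uroc1 stood at 8.34 and 8.94 in Cnot3+/- livers, against 8.27 and 9.20 in wild-type livers, on a probe set whose values did not carry over to its _s_at probe set, which lay between 11.16 and 11.38 on all arrays and differed by 0.02. Hal had gaps of 0.62 between the Cnot3+/- livers and 0.43 between the wild-type livers.

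Among the enzymes that move amino groups, Got1 stood out on a single array. Got1 is the cytosolic aspartate transaminase, a source of the aspartate that enters the urea cycle. Its values were 12.24 and 11.31 in Cnot3+/- livers, against 11.36 and 11.11 in wild-type livers. Cnot3+/- 1 was high and Cnot3+/- 2 lay between the wild-type livers, so that the difference of 0.54 (SE 0.32) became 0.08 without Cnot3+/- 1 and 1.01 without Cnot3+/- 2. Its mitochondrial counterpart Got2 differed by 0.09 (SE 0.13), and Glud1, the glutamate dehydrogenase that frees ammonia in the mitochondrion, by 0.05 (SE 0.13). Further probe sets of Got2 gave -0.03 with overlapping groups, 0.22 with groups apart upward at a level of 4.07, and -0.21 with groups apart downward below the filter. Another Glud1 probe set gave 0.10 with groups apart upward. For the alanine transaminase genes, Gpt differed by -0.10 (SE 0.17) and Gpt2 by 0.02 (SE 0.15). An _s_at probe set of Gpt gave 0.02, and the other 3 probe sets of Gpt2 gave between 0.02 and 0.03. Agxt, which clears glyoxylate by transamination with alanine, resembled Got1 in its pattern, at 10.66 and 9.91 in Cnot3+/- livers, against 10.13 and 9.82 in wild-type livers (difference 0.31, SE 0.28, and -0.06 without Cnot3+/- 1).

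Proline and lysine breakdown each had a first enzyme that was higher in both Cnot3+/- livers. Prodh, the proline dehydrogenase of the inner mitochondrial membrane, stood at 10.67 and 10.25 in Cnot3+/- livers, against 10.08 and 10.11 in wild-type livers. The groups were apart, mostly through Cnot3+/- 1, and the difference of 0.36 (SE 0.18) was 0.15 without that array. The following enzyme, Aldh4a1, overlapped at 0.15 (SE 0.16), or 0.0043 without wild-type 1. Aass, the bifunctional aminoadipate semialdehyde synthase of lysine breakdown, stood at 11.42 and 11.35 in Cnot3+/- livers, against 11.23 and 10.88 in wild-type livers, with a difference of 0.33 (SE 0.17). It was 0.16 without wild-type 2, the lowest array. Gcdh, the glutaryl-CoA dehydrogenase further down, overlapped at -0.03 (SE 0.13). In limma the adjusted p of all 4 was at least 0.999.

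Methionine and cysteine metabolism had 3 positive and 3 negative differences, with a median of 0.00. Cth, the cystathionine gamma-lyase that yields cysteine, stood at 12.03 and 12.06 in Cnot3+/- livers, against 11.98 and 11.50 in wild-type livers. Wild-type 2 alone was low, and the difference of 0.31 (SE 0.20) was 0.06 without it. Mat1a, the liver S-adenosylmethionine synthetase, differed by 0.11 (SE 0.14), and Gnmt, the glycine methyltransferase that buffers S-adenosylmethionine, by 0.09 (SE 0.16). Ahcy, which hydrolyses S-adenosylhomocysteine, differed by -0.09 (SE 0.14), and Cbs, the cystathionine synthase ahead of Cth, by -0.13 (SE 0.16). Bhmt, which remethylates homocysteine with betaine, differed by -0.16 (SE 0.30) and had a gap of 0.77 between the wild-type livers, larger than its gap of 0.45 between the Cnot3+/- livers. Its sign turned to 0.22 without wild-type 1.

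Across the members, disagreement between animals of a genotype was of the same order as the differences between genotypes. The median gap between the Cnot3+/- livers was 0.23, against 0.11 between the wild-type livers, while the median size of the difference between genotypes was 0.10. For all genes tested the corresponding gaps were 0.18 and 0.18, and the median size of the difference was 0.12. Of 21 further probe sets of the members above the filter, 11 had the sign of the probe set used and 10 the opposite one. The members most apart between the Cnot3+/- livers were Got1 at 0.93 and Agxt at 0.75, and between the wild-type livers Uroc1 at 0.94 and Bhmt at 0.77.

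Other enzymes of amino acid breakdown lay on either side of wild-type. In a list of 42 further enzymes, 19 differences were positive and 23 negative, with a median of -0.04. The Cnot3+/- livers were fully above wild-type in 8 (19%, against 14.1% of all genes tested) and fully below in 5 (11.9%, against 17.4%), and 0 of the 42 passed the test. The largest difference was that of Csad, the cysteine sulfinate decarboxylase of taurine synthesis, at 9.88 and 11.46 in Cnot3+/- livers, against 11.33 and 11.46 in wild-type livers. Cnot3+/- 1 alone was low, in a gene that differed by -0.73 (SE 0.51). Next came Ido2, a dioxygenase of the kynurenine pathway, at 5.97 and 5.49 in Cnot3+/- livers, against 6.54 and 5.94 in wild-type livers, overlapping at -0.51 (SE 0.27).

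Amino acid transporters lay mostly above wild-type, although none passed the test. Of 14 genes for plasma membrane amino acid transporters and the mitochondrial carriers of the urea cycle, 12 differences were positive, and the median was 0.30 against -0.01 over all genes tested. In 7 (50%, against 14.1% of all genes tested) both Cnot3+/- livers lay above both wild-type livers, and in 1 (7.14%, against 17.4%) both lay below. The list's median relative to wild-type was 0.43 on Cnot3+/- 1 and 0.30 on Cnot3+/- 2, while wild-type 1 and 2 had -0.10 and 0.10. The median difference lay between 0.23 and 0.43 when any 1 array was left out. Slc1a2, a glutamate transporter of pericentral hepatocytes, stood at 10.59 and 10.48 in Cnot3+/- livers, against 9.40 and 9.78 in wild-type livers, with a difference of 0.95 (SE 0.18). Slc7a2, the cationic amino acid transporter that admits arginine and ornithine, stood at 11.67 and 11.35 in Cnot3+/- livers, against 10.71 and 10.98 in wild-type livers, with a difference of 0.67 (SE 0.18). In both genes the groups were apart by more than the gap within either genotype. None of the 14 passed in limma, with adjusted p of at least 0.999, and 3 were higher at an unadjusted p under 0.05, as were 1.73% of all genes tested.

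**Figure D3:**
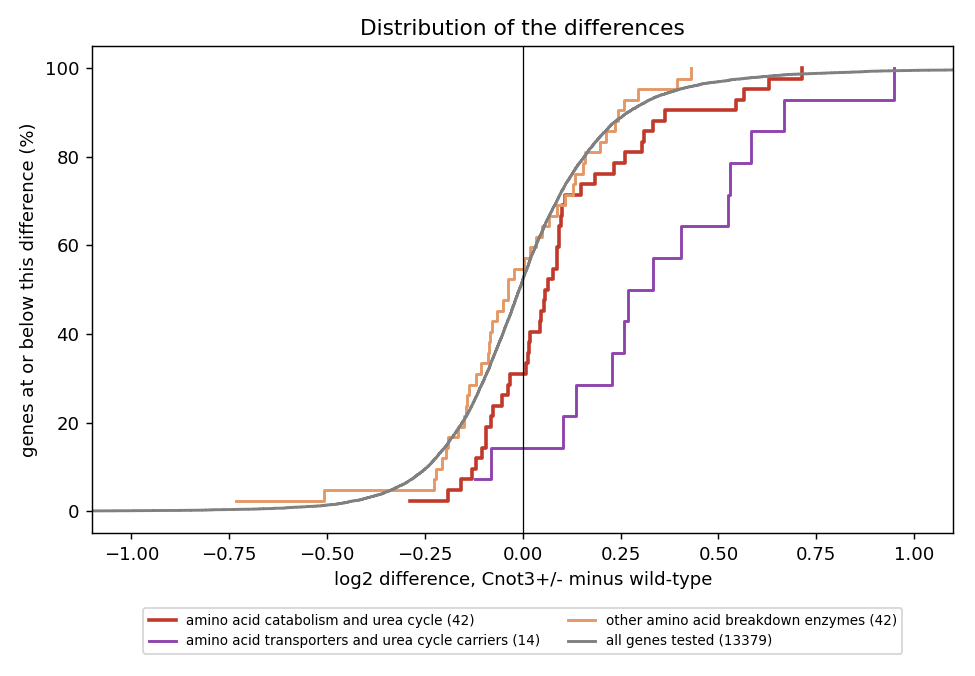
Cumulative share of genes (y axis, percent) at or below each log2 difference, Cnot3+/- minus wild-type (x axis, shown from -1.1 to 1.1). The 42 members have a median of 0.06 and end at 0.71, and all 13379 genes have a median of -0.01 and run past both ends of the axis. The 42 other breakdown enzymes have a median of -0.04, and the 14 transporters and carriers a median of 0.30.

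Regulators of the pathway were divided. Of 15 genes, 8 differences were positive and 7 negative, with a median of 0.05, and 0 passed the test. Both Cnot3+/- livers lay above wild-type in 2 of them (13.3%, against 14.1% of all genes tested). The largest differences were those of Ppargc1a, the coactivator of fasting genes, at 1.13 (SE 0.29), and Cebpb, a C/EBP factor, at 0.54 (SE 0.37). Cebpb stood at 11.21 and 11.51 in Cnot3+/- livers, against 10.29 and 11.35 in wild-type livers. The low value was that of wild-type 1, as it was for Tat.

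Markers of liver zones were also set beside the members, since urea cycle enzymes are periportal and glutamine synthetase is pericentral. Of 8 pericentral markers, 6 differences were positive and the groups were fully apart upward in 5 (62.5%, against 14.1% of all genes tested), with a median of 0.34, which became 0.21 when wild-type 1 was left out and 0.47 when wild-type 2 was. The largest were those of Slc1a2 and of the ammonia transporter gene Rhbg, at 6.68 and 7.45 in Cnot3+/- livers, against 6.22 and 6.40 in wild-type livers (difference 0.76, SE 0.28). Glul, the glutamine synthetase that captures ammonia left over by the urea cycle, stood at 11.55 and 11.76 in Cnot3+/- livers, against 11.08 and 11.45 in wild-type livers, with a difference of 0.39 (SE 0.18). Not all pericentral markers were apart. The groups overlapped for Cyp2e1 at -0.02 (SE 0.13), Axin2 at -0.04 (SE 0.215) and Lgr5 at 0.29 (SE 0.35). Of 6 periportal markers outside the members, 5 differences were positive and 1 was fully apart upward (16.7%), with a median of 0.18. The largest difference among them was that of Aldh1b1, a mitochondrial aldehyde dehydrogenase, at 8.47 and 8.21 in Cnot3+/- livers, against 7.38 and 6.97 in wild-type livers (difference 1.16, SE 0.20). Cdh1, the epithelial cadherin, was next with a difference of 0.58 (SE 0.32). None of the zone markers passed the test. Slc1a2, Glul and Oat each belong to 2 of these lists.

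**Figure D4:**
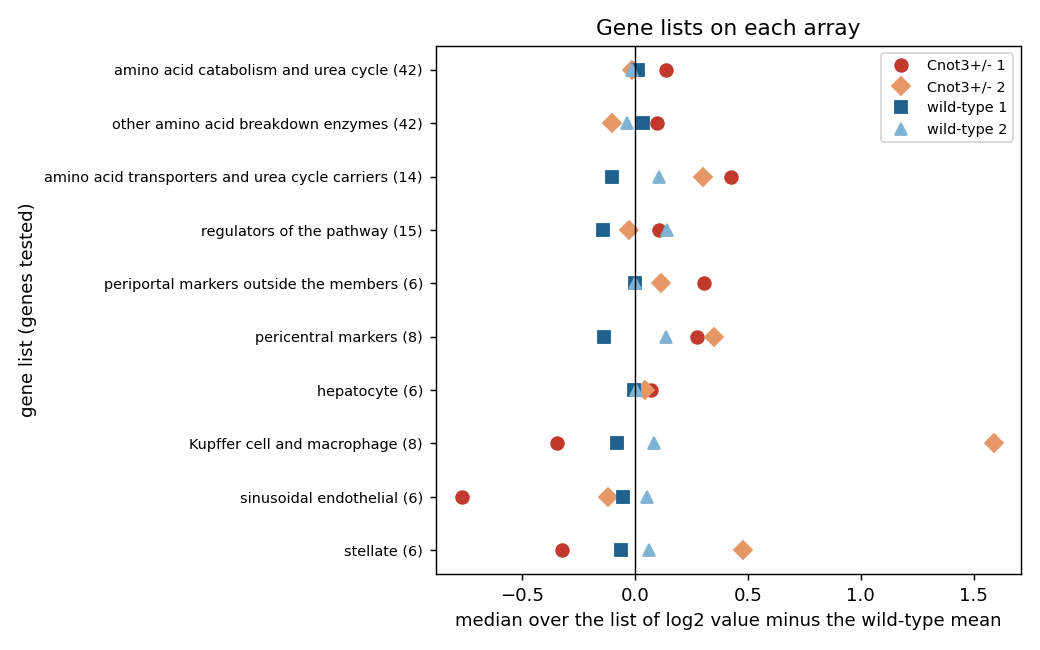
Median over each gene list of the log2 value minus the wild-type mean of the gene (x axis) on each array, with the number of genes tested in brackets (y axis). For the amino acid catabolism and urea cycle genes Cnot3+/- 1 lies at 0.13 and the other arrays within 0.01 of wild-type, for transporters both Cnot3+/- arrays lie right of both wild-type arrays, and Kupffer cell and macrophage markers have medians of -0.35 on Cnot3+/- 1 and 1.59 on Cnot3+/- 2.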

How the data were processed

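The values analysed are the deposited log2 expression values, for which the submitters' processing notes name RMA. Its version, and whether all arrays entered 1 run, could not be read from the labels. All 4 columns were mapped to samples. Gene names are those of the platform annotation, which can be old (34958 with 1 symbol, 932 with several, 9211 with none). Probe sets in the lowest 40% by mean, up to 4.06, were left out. A gene was read from the probe set with the highest mean, with _x_at and _s_at probe sets used only where no other existed, which gave 13379 genes. The genotypes were compared by limma (version 3.58.1, under R 4.3.3; lmFit, then eBayes), with no covariate, two-sided tests and Benjamini-Hochberg adjustment over all genes tested. Residual degrees of freedom were 2, to which moderation added 3.17. A difference is the Cnot3+/- mean less the wild-type mean, in log2 units, its SE is moderated, and only 2 arrays per group limit the precision. The same code was tested on simulated data. Levels were not compared between genes, apart from the mean level of the members and of all genes tested. Mean levels of cell type markers are given by array, to describe the arrays and show how bright the markers were. Promoters came from the RefSeq table. Every member is given, with the value of each array for the urea cycle genes and for members whose groups were apart with a difference of at least 0.3. Further genes are the 2 of largest difference in each list, and others were named after their values were seen. The members and lists were chosen with earlier results of these data known. Alternatives were the filter, averaging probe sets, quantile normalization, median centring, the replicate block, an intensity trend, unmoderated variances and leaving out each array.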

Additional observations from a re-analysis of the deposited data

How the results depend on the processing

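Under each alternative that kept every array, 0 members were called higher and 0 lower. The smallest limma adjusted p of a member in these settings was 0.827, for Bckdhb with the replicate block. Of all genes tested, at most 2 were called higher and at most 1 lower in any of these settings. With so few calls among all genes, a count of 0 cannot set the members apart from other genes. Members fully above wild-type numbered 10 to 14 under the other processing settings (12.1% to 16.5% of all genes) and 14 to 26 without 1 array (28.5% to 32.6%), while members fully below numbered 2 with probe sets averaged, 1 after quantile normalization, 2 to 13 without 1 array and 0 otherwise (14.6% to 20.05% of all genes under other settings, 32.8% to 36.7% without 1 array). Without wild-type 1, 19 were above and 7 below, and without wild-type 2, 19 above and 6 below. The replicate numbers are labels without a stated pairing. Over all genes the gaps between the 2 animals of each genotype correlated at 0.159, and over the members at 0.58, with only 2 pairs to judge from. Each replicate block held 1 array of each genotype, so fitting it could change no difference. The median of the members thus stayed at 0.0619 by design. With the block, 0 members and 0 of all genes tested were called. Under the alternatives for other lists, chosen after the data were seen, leaving out 1 array gave medians from -0.102 to 0.0979 for other breakdown enzymes, 0.228 to 0.426 for transporters, -0.0271 to 0.204 for regulators, 0.0855 to 0.304 for periportal and 0.205 to 0.474 for pericentral markers.

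Signs of 22 members turned when 1 array was left out, and 20 kept theirs. The ranges were -0.415 to 0.0327 for Asl, -0.201 to 0.0971 for Nags, -0.102 to 0.234 for Hpd, -0.0268 to 0.135 for Tdo2, -0.136 to 0.167 for Kmo, -0.0395 to 0.407 for Kynu, -0.059 to 0.150 for Haao, -0.304 to 0.319 for Hal, -0.564 to 0.374 for Uroc1, -0.0036 to 0.0939 for Glud1, -0.284 to 0.0766 for Gpt, -0.099 to 0.138 for Gpt2, -0.243 to 0.396 for Dbt, -0.0805 to 0.197 for Ivd, -0.200 to 0.0366 for Mccc1, -0.0807 to 0.106 for Mccc2, -0.275 to 0.124 for Pccb, -0.0838 to 0.0178 for Gcdh, -0.0638 to 0.683 for Agxt, -0.0042 to 0.221 for Mat1a, -0.0751 to 0.260 for Gnmt and -0.541 to 0.225 for Bhmt. After quantile normalization Kmo was -0.0232, Hal -0.0151, Gpt2 -0.0011 and Mccc2 -0.0202, and with probe sets averaged Ivd was -0.0169 and Mccc2 -0.0902. The cause was not tested. With 1 array in a group, that array is assumed to vary like the others.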

Other observations

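Asns, the asparagine synthetase gene of the amino acid stress response, varied within both genotypes. It stood at 7.81 and 6.40 in Cnot3+/- livers, against 7.96 and 5.93 in wild-type livers. The arrays numbered 1 were high in each genotype and those numbered 2 low, with a difference between genotypes of 0.16 (SE 0.78). In the list of 3 amino acid synthesis enzymes tested, the next largest difference was that of Phgdh, the first enzyme of serine synthesis, at -0.15 (SE 0.17), with overlapping groups.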
